A study of Mus musculus with 2 samples.

Results

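Csmd1, Csmd2 and Csmd3 are long paralogous genes, and their H3K9me2 peaks were described in activated B cells of C57BL/6 mice. There were 2 CUT&Tag libraries, 1 of the genotype labelled jmjd1c B KO (KO) and 1 of wild-type cells (WT). Both came from activated B cells of the same strain, and neither the Cre line nor the number or age of the animals is given in the sources used here. In CUT&Tag a transposase held to chromatin by an antibody, here against dimethylated lysine 9 of histone H3, inserts the sequencing adapters. The members were taken by symbol, and a peak counted where it overlapped the gene body or 2 kb on either side by at least 1 bp. The windows of these 3 of 21770 protein-coding genes held 92 of 32149 KO peaks and 95 of 31623 WT peaks. They were chosen by name with their peak numbers in both lists already known, so those numbers are a description and support nothing.

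H3K9me2 is a mark of silent chromatin, written by the enzyme pair encoded by Ehmt1 and Ehmt2 and removed by jumonji-domain demethylases of the family to which Jmjd1c belongs. The Csmd genes encode very large transmembrane proteins whose outer part is a chain of CUB domains and of sushi domains, which are the modules of complement control proteins. They are known mainly from the nervous system. Human CSMD1 restrains complement activation and is a candidate tumour suppressor, human CSMD3 is often mutated in lung cancer, and in mouse neurons Csmd3 takes part in dendrite growth. Csmd2 has been linked to synapses and dendritic spines in mouse neurons.

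The KO library held 34502392 tags and the WT library 33474010. With 1 library per genotype, differences between genotypes have no replicate check and carry no p-value. Intervals are 95% intervals for counting error only. In such bulk libraries, fewer cells with the mark and less of the mark per cell cannot be told apart. The windows of 5 B cell marker genes (Cd79a, Cd79b, Ms4a1, Pax5 and Ebf1) held 0 peaks in either library. Only 9.89% of all protein-coding windows in KO and 9.68% in WT held a peak, so 0 of 5 is no result about these genes. Peak lists also hold no expression and do not check the cell type. The lists also do not show the knockout itself.

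Csmd3 was rich in H3K9me2 peaks in both genotypes, and its paralogues were not. Csmd3, on chromosome 15 from 47580638 to 48792558 (mm10), had 68 peaks in KO and 75 in WT, or 55.9 peaks per Mb (exact Poisson interval 43.4 to 70.9) and 61.7 (48.5 to 77.3). Csmd1, on chromosome 8 from 15892538 to 17535385, is the longest of the genes and had 15 KO and 16 WT peaks, or 9.11 per Mb (5.10 to 15.0) and 9.72 (5.55 to 15.8). Csmd2, on chromosome 4 from 127986505 to 128567660, had 9 KO and 4 WT peaks, or 15.4 per Mb (7.03 to 29.2) and 6.84 (1.86 to 17.5). Peak density in Csmd3 was thus 6.14 times that of Csmd1 in KO (3.47 to 11.6) and 6.35 times in WT (3.67 to 11.7). Against Csmd2 it was 3.64 times in KO (1.81 to 8.29) and 9.02 times in WT (3.38 to 34.0). Csmd2 and Csmd1 could not be ordered, with ratios of 1.69 in KO (0.652 to 4.12) and 0.704 in WT (0.171 to 2.18). Over all protein-coding windows density was 8.86 per Mb in KO and 8.71 in WT, close to the level of Csmd1.

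**Figure D1:**
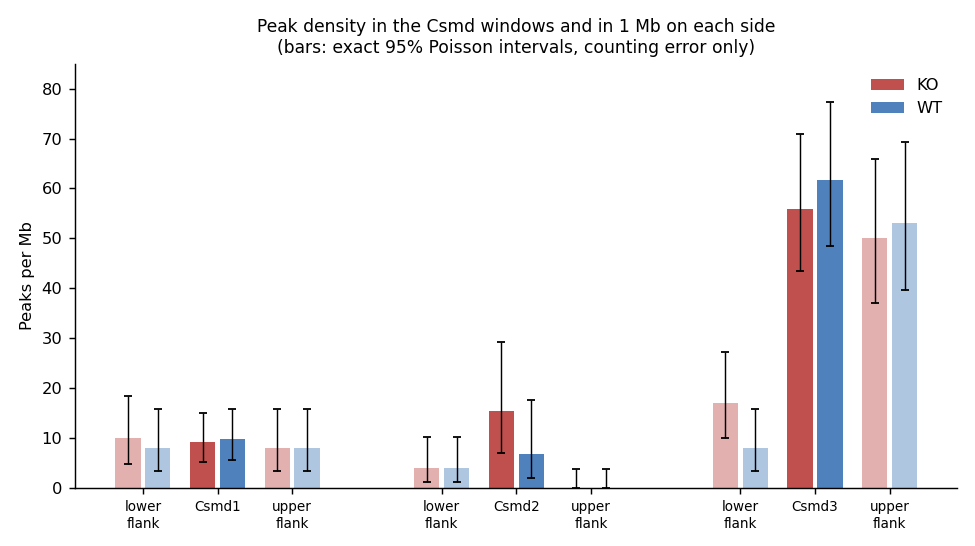
Peaks per Mb in the window of each Csmd gene (strong colour) and in 1 Mb on its lower-coordinate and upper-coordinate side (pale), in KO (red) and WT (blue), with exact 95% Poisson intervals. Csmd3 and its upper flank stand at 50 to 61.7 peaks per Mb, and all other bars stand at 17.0 or lower.

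Having any peak sets all 3 genes apart from most genes, but not from long ones. At least 1 peak was present in 9.89% of protein-coding windows in KO and in 9.68% in WT, and in both libraries in 7.78%. Among the 226 genes whose window spans 500 kb or more these shares were 87.6% in KO and 88.1% in WT. In that group the median density was 13.7 peaks per Mb in KO (quartiles 5.02 and 29.3) and 14.1 in WT (3.99 and 26.5). Csmd3 ranked 10 in KO and 5 in WT from the highest, Csmd1 ranked 145 and 139, and Csmd2 ranked 106 and 152. Among the 59 genes whose window spans 1 Mb or more, Csmd3 had the highest density in each library.

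The genes nearest in density, among long genes and averaged over both libraries, differed for each paralogue. For Csmd3 (mean 58.8 peaks per Mb) they were Mctp1, which encodes a calcium-binding membrane protein (58.0), the transcription factor gene Foxp2 (59.7) and Sugct, a gene of glutarate metabolism (57.1). For Csmd1 (mean 9.41) they were the transcription regulator gene Camta1 (9.30), the neuregulin receptor gene Erbb4 (9.25) and the cadherin gene Cdh18 (9.65). Csmd2 (mean 11.1) was nearest to Agbl4, a carboxypeptidase gene (11.0), Dpp10, which encodes a potassium channel partner (11.2), and Pcdh15, a protocadherin gene of hair cells (11.2). Likeness here is the absolute difference in peaks per Mb over 2 libraries, and it was at most 1.75.

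Peak number differed little between genotypes in Csmd3 and Csmd1. The KO to WT ratio was 0.907 for Csmd3 (exact interval 0.643 to 1.28) and 0.938 for Csmd1 (0.432 to 2.02), against 1.02 over all protein-coding windows (0.990 to 1.05). Both intervals contain the ratio of all windows, and neither excludes a moderate gain or loss. At a stricter q of 1e-05 or lower the ratios were 0.455 in Csmd3 (5 KO and 11 WT peaks) and 0.250 in Csmd1 (1 and 4). Those q-values depend on the fragment length d set by the peak caller, which was 189 bp in KO and 292 bp in WT. The ratio over all protein-coding windows at that q is not given here, so the stricter ratios do not show a loss particular to these genes.

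Csmd2 was the only member to differ by more than 5 peaks to 4 between the genotypes, with 9 KO peaks against 4 WT peaks, a ratio of 2.25 (0.628 to 10). Of 543 genes with at least 10 peaks over both libraries, 23.0% had at least 5 KO peaks for every 4 WT peaks and 21.9% at most 4 KO peaks for every 5 WT peaks, so 1 of 3 members is near the background. Csmd2 was among the more uneven genes of its peak number. Of the 25 genes with 13 peaks over both libraries, 4 had 9 in KO, Csmd2 included, which was the highest number, and 0 had 9 or more in WT. The interval includes 1, and a difference in Csmd2 was not detectable at this peak number. At the stricter q Csmd2 kept 1 KO and 0 WT peaks.

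Along Csmd3, peaks were sparse near the lower-coordinate end and dense toward the upper-coordinate end in both libraries. Strand was not used, so positions are counted from the lower coordinate. In the 10 equal parts of the gene body, of 121 kb each and taken in order of coordinate, KO had 2, 2, 5, 2, 9, 6, 12, 9, 11 and 10 peaks. WT had 2, 3, 1, 3, 5, 10, 13, 11, 14 and 13 peaks. The last 5 parts held 48 of 68 KO peaks (70.6%, exact binomial interval 58.3 to 81%) and 61 of 75 WT peaks (81.3%, 70.7 to 89.4%). The order was the same in both genotypes, with a thin lower part and a dense upper part. In limits set after the values were seen, the first 500 kb had 24.0 peaks per Mb in KO (12.4 to 41.9) and 18.0 in WT (8.23 to 34.2). The other 0.712 Mb had 78.7 in KO (59.4 to 102) and 92.7 in WT (71.7 to 118).

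**Figure D2:**
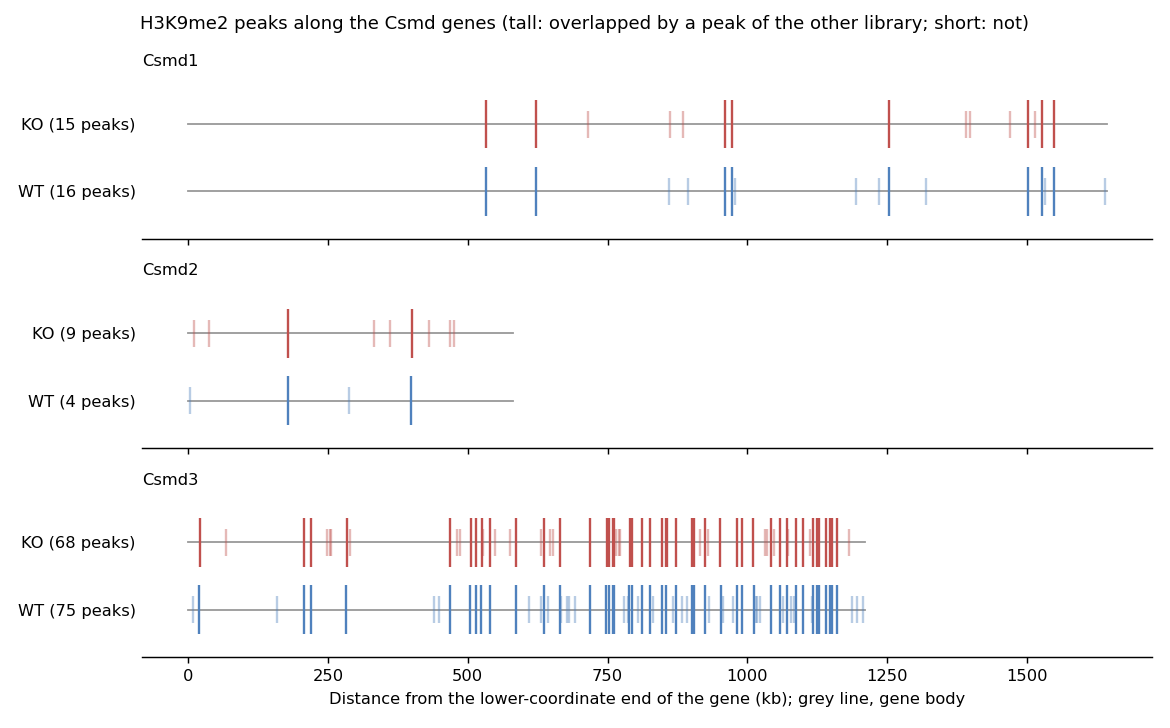
Position of every peak along Csmd1, Csmd2 and Csmd3, in kb from the lower-coordinate end, with KO (red) above WT (blue) and the gene body as a grey line. Tall ticks are peaks overlapped by a peak of the other library and short pale ticks are not; Csmd1 has no peak in its first 500 kb in either library, and Csmd3 fills up toward its upper-coordinate end.

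The 1 Mb flanks of Csmd3 differed in the same sense. The lower flank had 17 KO and 8 WT peaks, and the upper flank had 50 and 53. Csmd3 density was 3.29 times that of its lower flank in KO (1.91 to 5.97) and 7.71 times in WT (3.72 to 18.5). Against the upper flank the whole gene, its sparse lower part included, was 1.12 times as dense in KO (0.765 to 1.65) and 1.16 times in WT (0.808 to 1.69). The 0.712 Mb above the first 500 kb was denser than that flank, which had 50 peaks per Mb in KO (37.1 to 65.9) and 53.0 in WT (39.7 to 69.3). The intervals of that part and the flank overlapped in KO and did not in WT, but the limit of the part was chosen with the values in view. There was 0 other protein-coding gene within 1 Mb on either side.

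**Figure D3:**
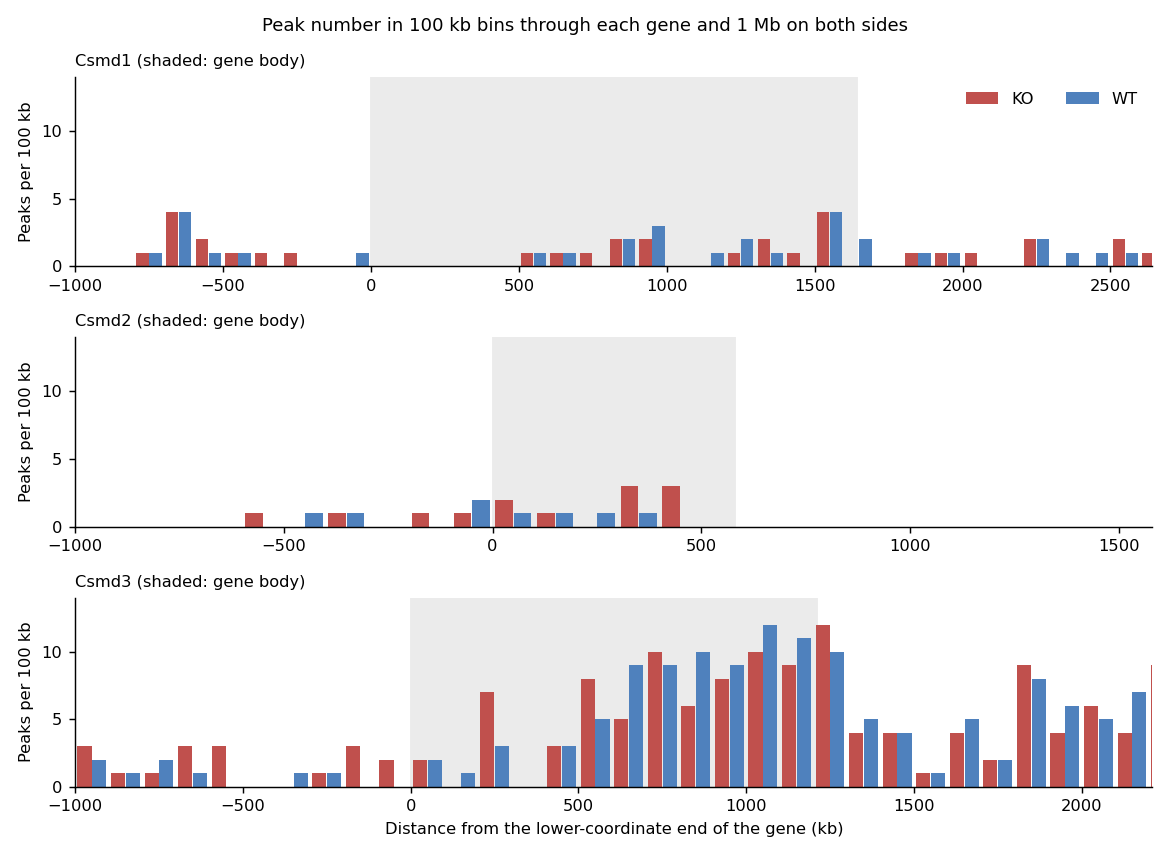
Number of peaks per 100 kb through each gene (shaded) and 1 Mb on both sides, in KO (red, left of each pair) and WT (blue), by distance from the lower-coordinate end. In Csmd3 the bins climb to 10 KO and 12 WT peaks inside the gene and stay populated past its upper end, whereas no bin of Csmd1 exceeds 4 peaks.

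The local background around the peaks of Csmd3 rose along the gene as well. For each peak the caller compares the pileup of tags with the larger of the genome average and the mean over a 10 kb window, and that background could be worked back from the deposited pileup and fold enrichment. It is given as a multiple of the genome average, so it cannot be under 1, and the peak itself adds to it. Its median over the KO peaks of Csmd3 was 1.0 in part 1, 1.58 in part 5 and 2.54 in part 10 of the gene. Over the WT peaks it was 1.0, 1.68 and 2.91 in the same parts. The highest value was at 1 shared site 95.7% along the gene, with 4.13 in KO and 4.32 in WT. Across peaks, position and background had a Spearman correlation of 0.76 in KO (68 peaks) and 0.75 in WT (75 peaks); neighbouring peaks share their 10 kb window, so these are descriptions. Peak density and this background thus climbed in the same direction. The background was read only at peaks and its 10 kb window can hold neighbouring peaks, so these are not separate observations. A high background also raises the pileup a peak must reach, and its part in the peak counts was not tested.

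**Figure D4:**
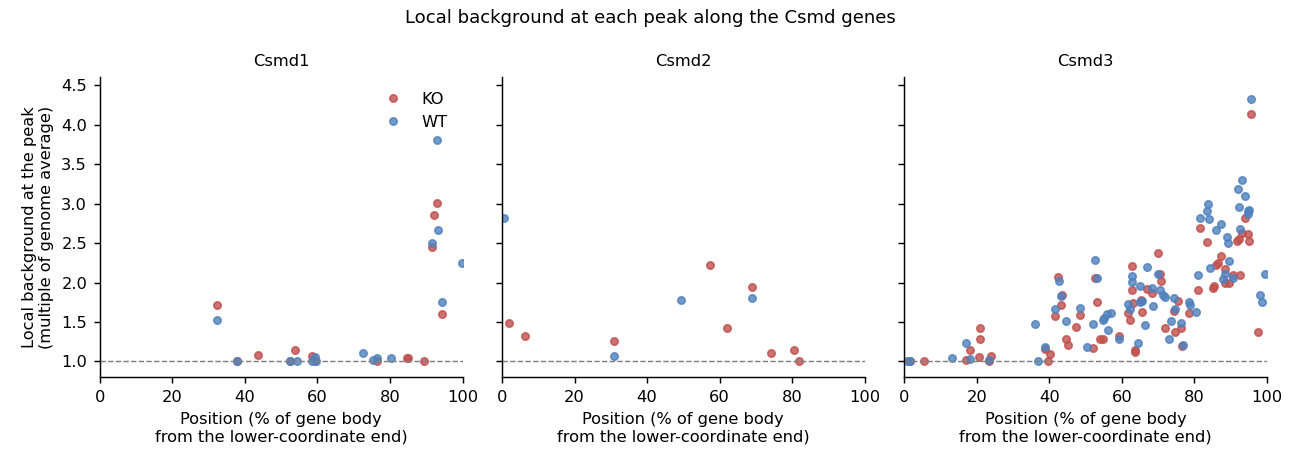
Local background at each peak, as a multiple of the genome average (dashed line at 1, the lowest value the caller allows), against position in percent of the gene body from the lower-coordinate end, in KO (red) and WT (blue). In Csmd3 the points climb to 4.13 in KO and 4.32 in WT, whereas in Csmd1 nearly all lie close to 1 except those near the upper-coordinate end.

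The peaks of Csmd3 were ordinary in strength. Median fold enrichment, the authors' value, was 3.09 in KO and 2.67 in WT, which lay at percentiles 50.9 and 45.0 of each list. Median width was 409.5 bp in KO and 551 bp in WT, at percentiles 55.1 and 59.6. The widest KO peak, from 48570519 to 48571895, spanned 1377 bp, and the widest WT peak, from 48435194 to 48437400, spanned 2207 bp. Both were overlapped by the other library. The peaks of highest fold enrichment lay in the sparse lower part: in KO one from 47864051 to 47864266 (4.13-fold), where the local background was 1.0, and in WT one from 47800788 to 47801933 (3.82-fold), where it was 1.03. This WT peak overlapped the snoRNA gene Gm23530, the only one of 4 genes nested in Csmd3 with a peak in its body; the pseudogene Gm18742 had 1 KO peak in its window, which reaches 2 kb past the body. The local background is the denominator of fold enrichment, and its part in these values was not tested.

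Csmd1 had a long peak-free stretch and a small dense patch at the opposite end. No peak lay in its first 532 kb in WT or first 533 kb in KO, and 0 peaks in 500 kb, a stretch chosen because it was empty, have an exact Poisson upper limit of 7.38 per Mb. Of the peaks, 12 of 15 in KO (80.0%, 51.9 to 95.7%) and 14 of 16 in WT (87.5%, 61.7 to 98.4%) lay in the last 5 of 10 equal parts. The largest gap between neighbouring peaks was 280.2 kb in KO, from 16865563 to 17145746, and 237 kb in WT, from 16515638 to 16752505. Among 119 long genes with at least 10 peaks in each library, the fuller of the lower and upper parts held a median of 61.5% of peaks in KO and 64.0% in WT. Csmd1 ranked 15 in KO and 8 in WT from the most uneven, and Csmd3 ranked 34 and 13. The ranks were not adjusted for peak number, which was 15 and 16 in Csmd1 against 68 and 75 in Csmd3, so they do not order these genes.

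The dense patch of Csmd1 lay inside C030002A05Rik, a protein-coding gene annotated within it, from 17353634 to 17492395. It held 5 KO and 4 WT peaks in 139 kb. The local background at those KO peaks was 1.01, 2.45, 2.85, 3.01 and 1.6, and at the WT peaks it was 2.50, 3.80, 2.67 and 1.75. Elsewhere in Csmd1 it was 1.72 or lower in KO, and in WT it was 1.53 or lower except for a single peak at 2.25 beside the upper-coordinate end. Most Csmd1 peaks therefore had a local background at or near the genome average, which is the lowest value it can take. Its median was 1.07 in KO and 1.05 in WT, against 1.57 and 1.66 over each whole list. Tag density below the genome average cannot be told from the average here.

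The strongest Csmd1 peaks were not the same in each genotype. In KO the highest fold enrichments were 5.50, at 17290642 to 17290831 inside the lncRNA gene Gm39136, and 4.14, at 17282662 to 17282867, 7.77 kb away. They are 190 and 206 bp wide, close to the smallest width the caller allows in KO, and the nearest WT peaks lay 78.6 and 70.6 kb away. In WT the highest were 3.80, at 17145573 to 17146064, and 3.78, at 17211667 to 17212026. The first of these was overlapped by a KO peak, and the second was not, with the nearest KO peak 65.7 kb away. The widest WT peak, from 17424556 to 17425590, spanned 1035 bp, and the widest KO peak, from 16864866 to 16865562, spanned 697 bp. The 1 Mb flanks of Csmd1 were as sparse as the gene, with 10 KO and 8 WT peaks below it and 8 and 8 above it. The 4 protein-coding genes beside it, Cln8, Arhgef10, Kbtbd11 and Myom2, held 0 peaks in either library.

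In Csmd2 peaks were scattered singly. The 9 KO peaks lay 11.2, 37.0, 179, 333, 361, 399.5, 431, 468 and 475 kb from the lower-coordinate end, and the 4 WT peaks lay at 3.01, 179, 287 and 399 kb. The sites near 179 and 399 kb were common to both libraries, and the other 7 KO peaks were at least 7.84 kb from any WT peak. Of the 9 KO peaks, 4 had the smallest width the caller allows, 189 bp, against 3 of 15 in Csmd1 and 6 of 68 in Csmd3. In WT, where that width is 292 bp, 0 of 4 had it, against 2 of 16 and 7 of 75. The share over each whole list is not given here, so these counts are a description. The highest fold enrichment in KO was 3.55, at the shared site from 128386014 to 128386461, and in WT it was 2.86, at 128273642 to 128274066. Local background at the peaks had a median of 1.32 in KO and 1.80 in WT. The median fold enrichment was 3.28 in KO and 2.73 in WT, at percentiles 69.4 and 51.8 of each list.

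Csmd2 lies in a gene-dense region, unlike Csmd3. There were 38 other protein-coding genes within 1 Mb of its window or overlapping it. Of these, 1 held a peak, against 9.89% of all protein-coding windows in KO and 9.68% in WT. It was CK137956, which overlaps the lower-coordinate end of Csmd2, with 1 KO and 3 WT peaks in its window. The body of CK137956 held 1 KO and 2 WT peaks, and the other WT peak is the Csmd2 peak at 3.01 kb. The lower flank had 4 KO and 4 WT peaks, and the upper flank had 0 and 0 over 26 protein-coding genes, with an exact Poisson upper limit of 3.69 peaks per Mb. Density in Csmd2 was 3.85 times that of the lower flank in KO (1.07 to 17.1) and 1.71 times in WT (0.318 to 9.18). The nested genes Csmd2os, Hmgb4, Hmgb4os and Gm33656 had 0 peaks in their bodies in either library. In its window, which reaches 2 kb past the body, Csmd2os had 1 KO and 1 WT peak, those of the shared site near 179 kb. Hmgb4 is a small gene of the high mobility group family expressed in testis.

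Spacing followed density. The median gap between neighbouring peaks was 9.18 kb in KO and 8.52 kb in WT for Csmd3, with quartiles of 5.15 and 17.3 kb in KO and 4.98 and 17.3 kb in WT. It was 51.9 kb in KO and 40.7 kb in WT for Csmd1. For Csmd2 it was 34.0 kb in KO (8 gaps) and 112 kb in WT (3 gaps). The shortest gaps in Csmd3 were 0.762 kb in KO and 1.23 kb in WT, and the longest were 179 and 155 kb, both below its middle. Gaps of at most 10 kb made up 52.2% of those in KO and 56.8% in WT in Csmd3. In Csmd1 they were 1 of 14 in KO and 2 of 15 in WT, and in Csmd2 1 of 8 and 0 of 3.

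Spacing in Csmd3 was uneven for a long gene. The SD of its gaps was 1.64 times their mean in KO and 1.58 times in WT, against medians of 0.956 and 0.957 over the 119 long genes, and it ranked 3 and 13 from the most uneven. Csmd1, with 1.05 in KO and 1.06 in WT, ranked 47 and 43. A compared gene could have as few as 10 peaks per library, against 68 in KO and 75 in WT for Csmd3. The part of peak number in these ranks was not tested. Within Csmd3 the median gap was 11.8 kb in KO and 20.1 kb in WT among peaks of the first 5 parts. Among peaks of the last 5 parts it was 8.27 kb in KO and 7.11 kb in WT.

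**Figure D5:**
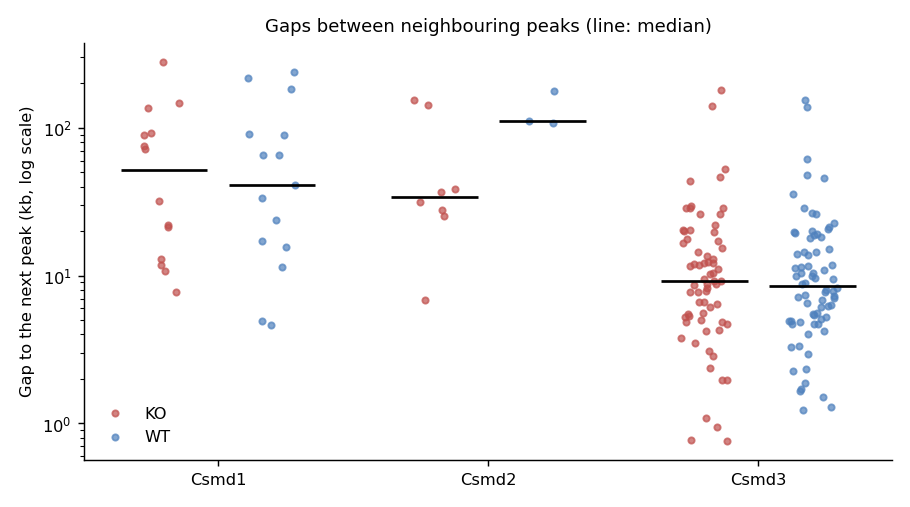
Gap from the end of each peak to the start of the next within Csmd1, Csmd2 and Csmd3, in kb on a log scale, for KO (red) left of WT (blue), with the median as a line. Csmd3 has medians of 9.18 kb in KO and 8.52 kb in WT, and the other genes have medians of 34.0 kb or more.

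Most peaks of Csmd3 in each library were overlapped by a peak of the other. A WT peak overlapped 44 of its 68 KO peaks (64.7%, exact interval 52.2 to 75.9%), and a KO peak overlapped 43 of its 75 WT peaks (57.3%, 45.4 to 68.7%). Over peaks in all protein-coding windows these shares were 44.7% and 45.4%, and in the 119 long genes their medians were 43.8% and 45.5%, with Csmd3 at ranks 11 and 21. The shares of Csmd3 were higher than those of all windows in KO and in WT. Its intervals treat peaks as independent and cover counting error only, so they do not test that difference. The KO and WT overlaps are the same sites seen from each library, so they are not separate evidence. Csmd1 had 8 of 15 KO peaks (53.3%, 26.6 to 78.7%) and 8 of 16 WT peaks (interval 24.7 to 75.3%) overlapped. Csmd2 had 2 of 9 in KO (22.2%, 2.81 to 60%) and 2 of 4 in WT (6.76 to 93.2%). The intervals of the 3 genes overlapped, so sharing did not order them. With a reciprocal overlap of 50% the shares were 33.8% in KO and 30.7% in WT for Csmd3, and 40.0% and 37.5% for Csmd1, which was then the higher.

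Merged over both libraries, Csmd3 held 99 sites, of which 43 were common, 24 were in KO only and 32 in WT only. Csmd1 held 23 sites, with 8 common, 7 in KO only and 8 in WT only, and Csmd2 held 11, with 2, 7 and 2. In Csmd3 the common sites stood where the local background was high. Its median was 1.90 at overlapped and 1.33 at other KO peaks, and 1.96 at overlapped and 1.66 at other WT peaks. Overlapped peaks also had higher pileup, with medians of 21.5 and 17.1 in KO and 29.6 and 25.1 in WT. Peaks without an overlap had a median distance to the nearest peak of the other library of 7.73 kb in KO and 6.09 kb in WT in Csmd3. In Csmd1 this median was 32.2 kb in KO and 13.2 kb in WT. The part of peak density and pileup in the overlap was not tested.

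At the 42 sites of Csmd3 where 1 KO peak met 1 WT peak, midpoints lay a median of 135 bp apart. The KO peak was narrower at 32 of them, and the median width was 416 bp in KO and 595 bp in WT, and d, smaller in KO, moves with that difference; its part was not tested. The local background was lower in KO at 36 of 42 (85.7%), with medians of 1.88 in KO and 1.98 in WT and a median KO minus WT difference of -0.15. Over all 14553 such pairs of the series it was lower in KO at 70.6%, with a median difference of -0.084. In Csmd1 it was lower at 6 of 8 pairs and in Csmd2 at 0 of 2. Fold enrichment was higher in KO at 38 of 42 sites of Csmd3, with medians of 3.01 in KO and 2.68 in WT. It was also higher in KO at 6 of 8 pairs in Csmd1 and at 2 of 2 in Csmd2. Over all pairs of the series fold enrichment was higher in KO at 85.2%, with medians of 3.06 and 2.72, and the KO peak was narrower at 64.9%. The parts of the local background and of d in fold enrichment were not tested. The shared sites of Csmd3 thus differed between the libraries in the same direction as most pairs of the series.

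Most other genes of the complement system and of CUB and sushi domain proteins carried no peak. Of 34 complement genes found in the gene table, 5 had a KO peak and 4 a WT peak (14.7% and 11.8%, against 9.89% and 9.68% of all protein-coding genes). Most of those with a peak were terminal pathway genes, of the membrane attack complex. C6 had 5 KO and 5 WT peaks, C7 had 3 and 3 and C9 had 0 and 2, all on chromosome 15. C8a had 2 and 1 and C8b had 1 and 0, side by side on chromosome 4. Hc, which encodes C5, and C8g are of the same complex and had 0 and 0. Pathway and position in the genome cannot be told apart here. In its window of 0.0810 Mb, C6 had 61.7 peaks per Mb in KO and in WT, a level like that of Csmd3. The lectin gene Mbl1 had 1 and 0. Of 30 other CUB or sushi domain genes, 5 had a KO peak and 4 a WT peak. Pdgfd, a growth factor gene and the longest of them with a 0.370 Mb window, had 13 in KO and 20 in WT. Srpx had 5 and 2, Tll1, a protease gene, 2 and 3, Susd4, a complement regulator gene, 2 and 2, and Neto1, a glutamate receptor partner gene, 2 and 0. The median density was 0 in both lists and both libraries, as over all protein-coding genes.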

How the data were processed

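Peaks of 2 H3K9me2 CUT&Tag libraries, grouped by the genotype in the labels, were analysed. Tools named by the submitters' processing notes, with no role, are Bowtie2 2.4.2, Trim Galore 0.6.6, deepTools, HOMER, MACS2, Picard and SAMtools 1.11, and the build is mm10. Broad peaks were called by the authors in each library, per the file headers, with MACS2 2.2.7.1 at a q of 0.01, keeping duplicates, with no control library. Regions that attract reads in any library therefore remain. The deposited pileup is a coverage signal not scaled between libraries, q-values and p-values are deposited as −log10, and the deposited fold enrichment is a ratio, pileup over local background. Per the file headers, d was 189 bp in KO and 292 bp in WT; it sets the smallest width and affects q. Peak widths, another deposited column from the authors, are in bp.

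Genes came from RefSeq of GRCm38.p6, the assembly behind mm10, on chromosomes 1 to 19, X and Y; 348 genes listed from scaffolds were left out. Local background was (pileup + 1) / fold enrichment - 1, divided by tags × d / 1870000000. Of all analysed peaks, 0 fell below the genome average and 13.5% in KO and 11.8% in WT equalled it within a ratio of 0.003. Intervals were exact Poisson, Clopper-Pearson and conditional binomial, for counting error only. Counting was checked against a plain loop on the WT peak list, and overlap on that list with part of its peaks moved. The ratio interval was tested on simulated counts. Python 3.11.15, pandas 2.3.3 and SciPy 1.17.1 were used.

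Named genes were the members, for each the 3 long genes nearest in density, list members with a peak and genes within 1 Mb; named peaks were the 2 of highest fold enrichment and the 2 widest per gene and library, not all of which are given. The members and lists were chosen with earlier results of these data known. Local background, 500 kb segments and comparisons with genes of equal peak number were added after the values were seen. Some single genes of the planned lists are not reported here and were left out of the list counts. Base composition of peaks and exon position were planned and not analysed here.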

Additional observations from a re-analysis of the deposited data

How the results depend on the processing

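Of 162 values recomputed under alternatives, 125 stayed within 1.5 times the count or inside the interval reported, and 37 moved. All values stayed under equal peak numbers, no flank, a 10 kb flank, midpoints and peaks within 500 bp counted as shared. Most of these settings could change little, so the 125 include values that could hardly move. No member peak reached outside its gene body, so no flank and midpoints could not change a peak number. The closest unshared peak lay 0.546 kb from the other library, so the 500 bp limit could add no shared peak. Equal numbers acted on lists of similar length, 32149 KO and 31623 WT peaks. A pileup under 100 removed no member peak, since the highest pileup was 55.2, and all values stayed. They also stayed with KO peaks lengthened to make up for their smaller d. That can change peak numbers and ratios only by merging peaks or at a window edge, and was added for those after seeing the data. At a q of 1e-05 or lower, peak numbers were 1 in KO and 4 in WT for Csmd1, 1 and 0 for Csmd2, and 5 and 11 for Csmd3, with KO to WT ratios of 0.250 for Csmd1 and 0.455 for Csmd3. The covered share was then 0.0115% in KO and 0.0932% in WT for Csmd1, 0.0766% and 0% for Csmd2, and 0.224% and 0.899% for Csmd3, against 0.308% and 0.521%, 0.486% and 0.357%, and 2.78% and 3.89% with all peaks. Overlapped shares were 0% in KO and 0% in WT for Csmd1, 0% in KO for Csmd2, and 40.0% and 18.2% for Csmd3. Median gaps were 183 kb for Csmd1 in WT, and 53.9 kb in KO and 42.2 kb in WT for Csmd3. With peaks at least 1 kb wide, numbers were 0 and 1 for Csmd1, 0 and 0 for Csmd2 and 5 and 9 for Csmd3, with ratios of 0 for Csmd1 and 0.556 for Csmd3 and overlapped shares of 0% for Csmd1 and 33.3% for Csmd3 in WT. Reciprocal overlap of 50% gave 33.8% in KO and 30.7% in WT for Csmd3, below the 40.0% and 37.5% of Csmd1, which turned their order. Median gaps became 11.2 kb for Csmd3 in WT with peaks merged within 5 kb, and 7.35 kb for Csmd3 in KO and 33.9 kb for Csmd2 in WT over the union of both libraries. The strict limits keep fewer peaks by construction and act on q and on width, both of which move with d. KO to WT ratios over all protein-coding windows under these limits are not given here. Csmd3 kept the highest number of peaks of the 3 genes in each library under them. No paired analysis was possible because each genotype had 1 library, and for the same reason no replicate could be left out. At so few peaks, Csmd2 limits what can be said of any difference.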
